A study of Mus musculus with 44 samples.

Results

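The genes described here are 10 regulators of the G1 phase of the cell cycle, chosen by name: the D cyclins Ccnd1, Ccnd2 and Ccnd3, the E cyclins Ccne1 and Ccne2, the kinases Cdk4 and Cdk6, and the inhibitors Cdkn1a, Cdkn1b and Cdkn2c. All 10 were among the 21099 genes of the RANKL count table and 9 were among the 9257 genes of the RANKL+CSRM617 table; Ccnd3 was analysed in the RANKL arm alone. Single cells came from mouse small intestinal organoids of 1 line, line26 wild type, which carries the Lgr5GFPDTR/+ allele and was derived from a female mouse. The RANKL+CSRM617 arm had 14 plates of sorted cells, 2 for each of days 0 to 6, and received 100 ng/mL RANKL with 40 µM CSRM617, an inhibitor of the transcription factor ONECUT2. The RANKL arm had 30 plates, 3 for each of days 0 to 9, and received 100 ng/mL RANKL alone. Before RANKL, every culture passed through medium with 3 µM CHIR99021, a GSK3 inhibitor, and 1.5 mM valproic acid, a histone deacetylase inhibitor. RANKL induces M cells, which sample antigens from the gut lumen, and the design asks how the cells change by day with the inhibitor and without it.

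In G1, D cyclins bind CDK4 or CDK6 and E cyclins bind CDK2, and these kinases phosphorylate the retinoblastoma protein, which frees E2F factors to switch on the genes of DNA replication. INK4 inhibitors, of which Cdkn2c encodes p18, bind CDK4 and CDK6 and keep D cyclins off. The CIP/KIP inhibitors p21, encoded by Cdkn1a, and p27, encoded by Cdkn1b, bind complexes of cyclin and CDK, and p21 is a classic target of p53. In the small intestine, stem and progenitor cells of the crypt divide, and cells leave the cycle as they differentiate towards the villus.

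The plate was the replicate, with counts of unique molecular identifiers (UMIs, each marking 1 molecule) summed over its cells. After a filter at 1000 UMIs per cell, 1673 RANKL+CSRM617 cells and 6558 RANKL cells remained, 24 to 223 and 26 to 282 per plate. Summed UMIs per plate ran from 47976 to 835772 in the RANKL+CSRM617 arm and from 155940 to 1640523 in the RANKL arm. The second plate of RANKL day 0 had the fewest cells of its arm, 26, and 5 plates of the study had under 50. Nothing in the labels ties plates to cultures of their own, and p-values therefore speak only of plate-to-plate spread, possibly technical. Later days had no untreated plates among those analysed here, so each change from day 0 joins treatment with time in culture. All changes from day 0 within an arm share the same day 0 plates. In sums over a plate, fewer cells of a type and less RNA per cell cannot be told apart. Of 10 markers of other cell types (immune, mesenchymal and endothelial), none was in the RANKL+CSRM617 table, and the 7 found in the RANKL table summed to 0 to 10.1 CPM per plate.

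Both G1 kinases rose during the RANKL course. Cdk6 (chromosome 5, 3341485 to 3531008, GRCm38, protein coding), a partner of D cyclins, stood at 742, 925 and 736 CPM (counts per 1e6 UMIs, with library sizes scaled by TMM) on the 3 plates of day 9, against 179, 346 and 191 CPM on day 0. All plates of day 9 lay above all plates of day 0. Its log2 fold change was 1.90 ± 0.18 (SE) on day 9 (edgeR quasi-likelihood test, adjusted p = 3.4e-10) and 1.62 ± 0.18 on day 6 (adjusted p = 4.95e-09). Early steps were smaller, 0.83 ± 0.18 on day 1 (adjusted p = 0.000687) and 0.49 ± 0.18 on day 3 (adjusted p = 0.0485), and on both days the plates overlapped with those of day 0, of which the second was the highest. The day 3 call was lost without day 0 replicate 1 or 3 or day 3 replicate 1 or 3 (adjusted p = 0.0593 to 0.244). Cdk4 (chromosome 10, 127063534 to 127067920, protein coding), the other partner of D cyclins, stood at 369, 310.5 and 261 CPM on day 6, all above the 193, 205 and 159 CPM of day 0. Its log2 fold change was 0.79 ± 0.15 on day 6 (edgeR adjusted p = 7.4e-05) and 0.44 ± 0.15 on day 9 (adjusted p = 0.023, but 0.181 without day 0 replicate 3). Mean Cdk4 was highest on day 7, at 331 ± 46 CPM (SD, n = 3), and mean Cdk6 on day 9, at 801 ± 108 CPM. Both means were lowest on day 0, at 186 ± 24.1 and 239 ± 93.5 CPM.

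The D cyclins followed separate courses. Ccnd2 (chromosome 6, 127125162 to 127152193, protein coding) was lowest on day 1 and highest on day 9. It stood at 251, 232 and 250.4 CPM on day 1, against 398, 436 and 452 CPM on day 0, with no overlap. It fell by 0.81 ± 0.21 on the log2 scale (edgeR adjusted p = 0.00387). On day 9 it stood at 751, 652 and 818 CPM, all above day 0, a rise of 0.79 ± 0.21 (adjusted p = 0.00251). Days 3 and 6 gave log2 changes of 0.06 ± 0.20 and 0.22 ± 0.21, which did not pass the test. Ccnd1 (chromosome 7, 144929931 to 144939925, protein coding), the D cyclin often placed downstream of growth factor and Wnt signals, had 120.0, 174 and 228 CPM on day 9, against 69.9, 77 and 69.5 CPM on day 0, with no overlap. Its log2 fold change was 1.32 ± 0.35 on day 9 (edgeR adjusted p = 0.00277) and 1.05 ± 0.35 on day 6 (adjusted p = 0.0154), where the call was lost without day 0 replicate 3 (0.0648) or day 6 replicate 2 (0.0856). Plates of a day could lie far apart for this gene: on day 3 it stood at 182, 60.0 and 88 CPM. Over all days jointly, Ccnd1 had an adjusted p of 0.0671 and did not pass. It did pass without any of 11 single plates out of 30 (0.00297 to 0.0498), in limma (0.0238), without the filter on low counts (4.21e-09) and in cells with few proliferation UMIs (0.000644). Ccnd3 (chromosome 17, 47505051 to 47599691, protein coding) had day means of 13.4 to 27.1 CPM and passed no test, and its day 6 change of 0.00 had a 95% interval of -0.70 to 0.71.

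The E cyclins, partners of CDK2 late in G1, were sparse. Ccne1 (chromosome 7, 38097984 to 38107534, protein coding) had 1, 5 and 2 UMIs on the plates of day 6 and 1, 2 and 4 on day 9, against 17, 0 and 23 on day 0. As CPM these averaged 2.6 ± 2.27 on day 6 and 2.53 ± 1.32 on day 9, against 12.5 ± 11.3 on day 0 (SD, n = 3). The second plate of day 0, which had no Ccne1 UMI, made the groups overlap. Its log2 fold change was -2.70 ± 0.60 on day 6 (edgeR adjusted p = 0.000453) and -2.61 ± 0.62 on day 9 (adjusted p = 0.00113). With every cell given equal weight, in limma on log2(CPM + 5), the values were -0.83 and -0.82 and neither passed (adjusted p = 0.101 and 0.108). Ccne2 (chromosome 4, 11191351 to 11204779, protein coding) had 145 UMIs in all RANKL cells together, did not pass the filter on low counts there, and had day means of 1.68 to 8.34 CPM.

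Among the inhibitors, Cdkn1a went opposite to the kinases. The gene lies on chromosome 17, 29090976 to 29100727, plus strand, and is protein coding. RefSeq gives it 2 start windows (GRCm38.p6, from 250 bases before to 50 after a start). The stretch below, from the upstream window, is shown because it holds a palindrome of the kind p53 binds: CATG, any 6 bases, and CATG again, with the fixed letters in capitals.
Cdkn1a, chr17:29090908-29090967, plus strand: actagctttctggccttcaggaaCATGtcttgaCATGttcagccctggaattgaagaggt
Read on both strands, this pattern was in 234 of 32851 start windows of all genes in the table (0.712%). It was in 1 of the 10 windows found for 7 of the members, and in 0 of the 24 windows found for 19 genes of a list of other p53 targets. A match of letters describes the window and shows no binding.

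Cdkn1a RNA stood at 140.3, 156 and 87 CPM on day 6 of RANKL, all below the 429.7, 346 and 626 CPM of day 0. It fell by 1.93 ± 0.24 on the log2 scale (edgeR adjusted p = 6.33e-08). Day 9, at 169, 211 and 186 CPM, was also below day 0, with a log2 fold change of -1.36 ± 0.24 (adjusted p = 2.5e-05). Days 1 and 3 gave -0.33 ± 0.23 and -0.39 ± 0.23 and did not pass. Every plate of day 4 or later had 266 CPM or less, and every plate of days 0 to 3 had 296 CPM or more, a cut drawn after the data were seen. In cells with few proliferation UMIs, defined below, day 4 against day 3 gave -0.41 (edgeR adjusted p = 0.582). The plates of these days overlapped there, with replicate 2 at 491 CPM on day 4 and 377 CPM on day 3. Cdkn1b (chromosome 6, 134920401 to 134925513, protein coding) differed from Cdkn1a in direction, at 226, 204 and 183 CPM on day 6 against 122, 64.2 and 151 CPM on day 0, with no overlap. Its log2 fold change was 0.70 ± 0.19 on day 6 (edgeR adjusted p = 0.00319) and 0.71 ± 0.19 on day 9 (adjusted p = 0.00309). Cdkn2c (chromosome 4, 109660876 to 109667189, protein coding) had day means of 14.3 to 32.7 CPM. It passed the joint test over days (adjusted p = 0.0244), a call lost without day 2 replicate 1, day 2 replicate 3 or day 8 replicate 3 (0.0509 to 0.0594), and passed none of the comparisons with day 0.

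**Figure D1:**
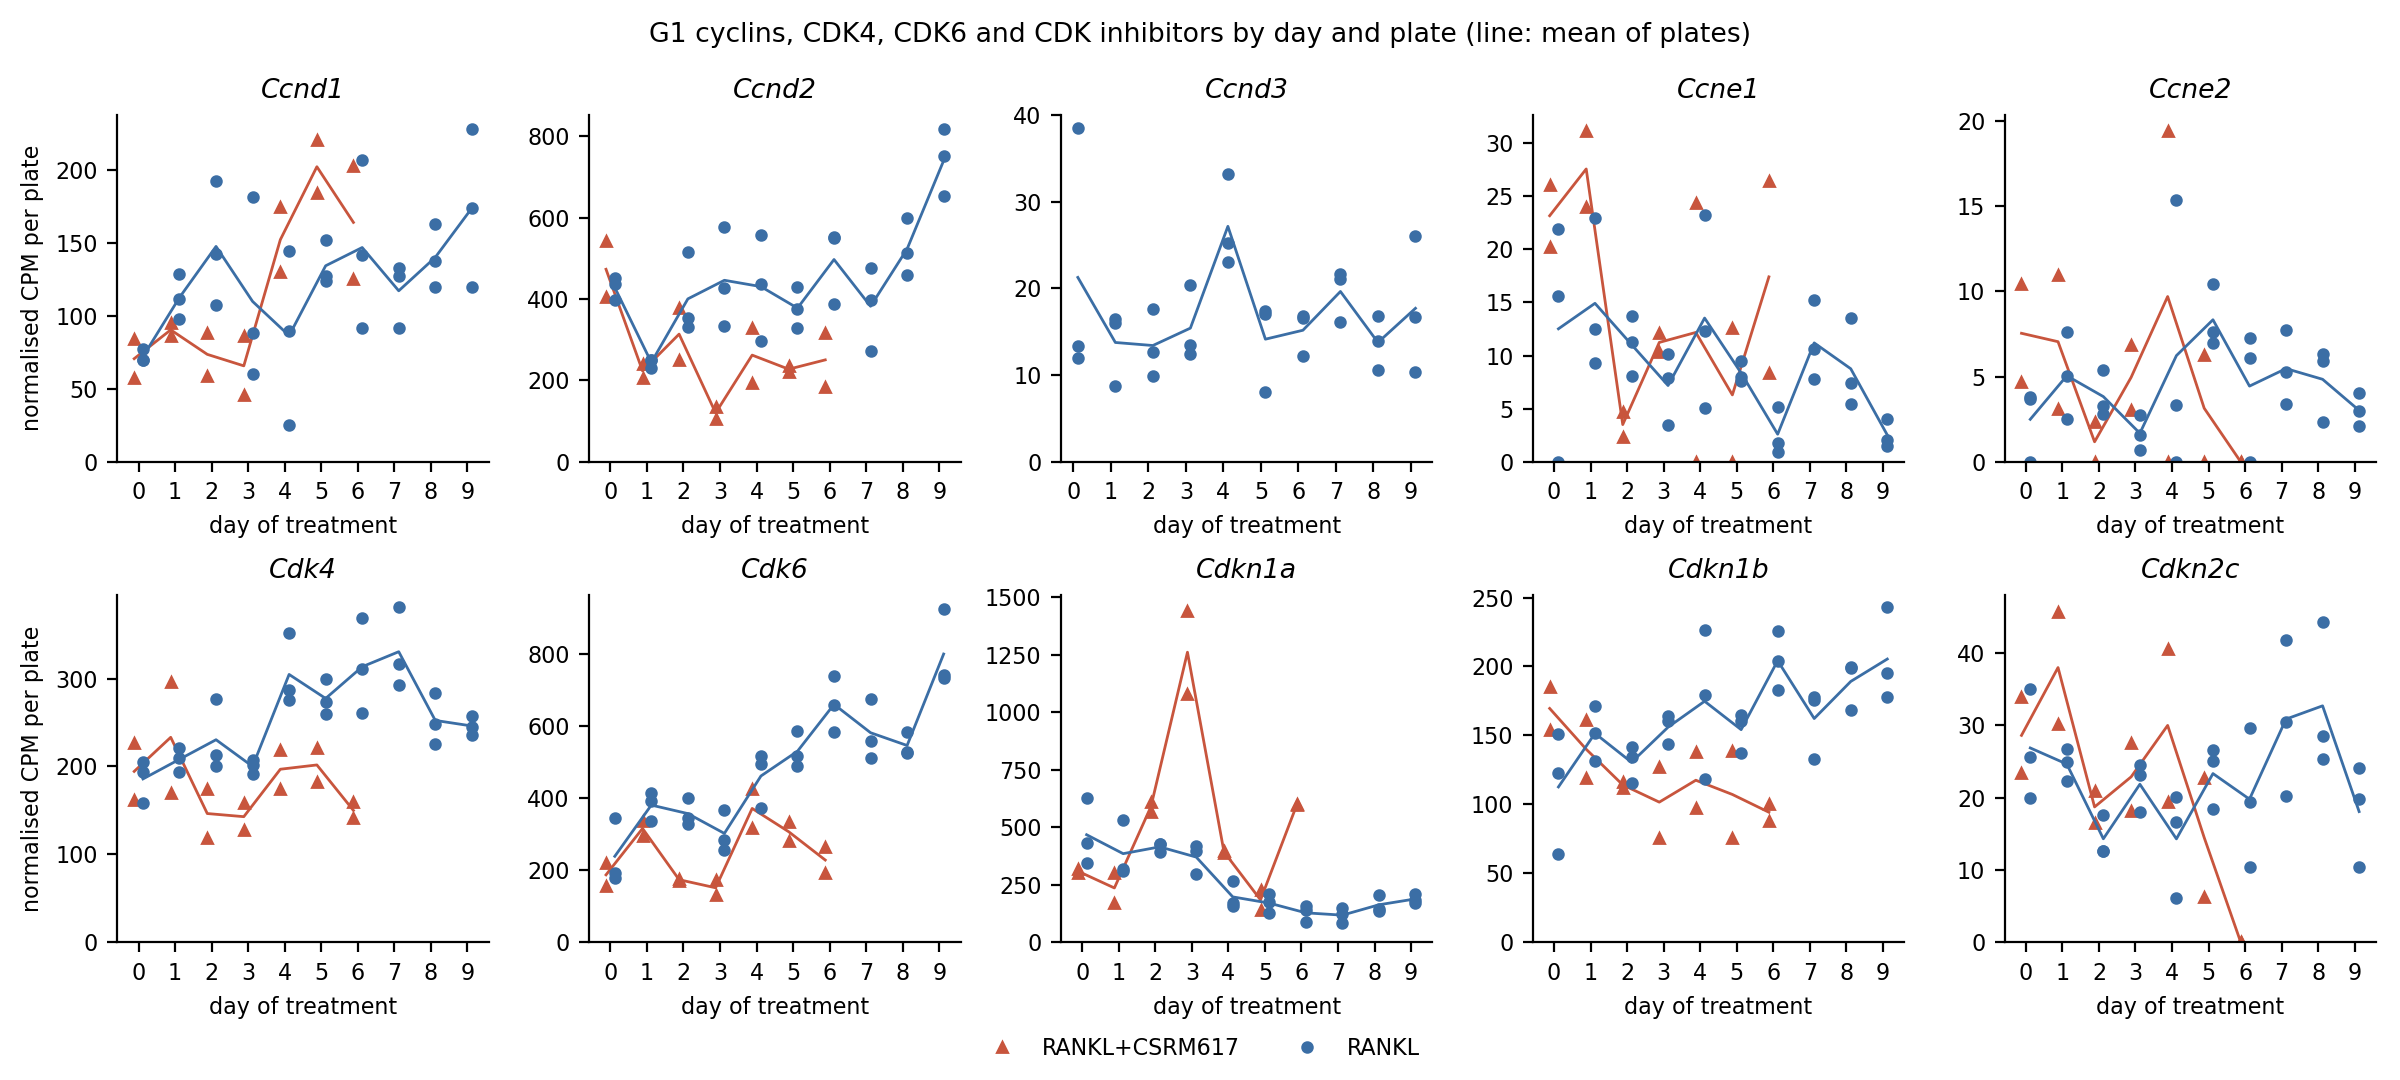
Normalised CPM of each gene (y axis, from 0, with a scale of its own for each gene) on each plate by day of treatment (x axis), with RANKL+CSRM617 plates as red triangles, RANKL plates as blue circles and lines through the means of plates; each arm is scaled by itself. Mean Cdkn1a peaks at 1261 CPM on day 3 with CSRM617 and lies at 128 CPM on day 6 with RANKL alone, and mean Cdk6 is highest, at 801 CPM, on day 9 with RANKL alone.

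Over the whole RANKL course, 7 of the 9 tested members passed the joint test over days, against 58.6% of the 10000 genes tested; Ccnd1 and Ccnd3 did not. Against day 0, 2 of 9 passed on day 1 (23.8% of all genes), 1 on day 3 (20.4%), 6 on day 6 (38.3%) and 7 on day 9 (36.4%). The counts of days 1 and 3 were near or below that background. Among the called members the plates of the 2 days did not overlap in 5 of 6 on day 6 and in 6 of 7 on day 9. Over all tested genes, called or not, they did not overlap in 44.3% and 42.8%. Called genes were picked for differing, so these shares are not a like background for them. The median log2 change of the 9 members was 0.22 on day 6 and 0.44 on day 9, and 0.04 and 0.03 over all genes. On day 4 against day 3, 3 of 9 passed (9.34% of all genes): Cdk4 rose by 0.60 ± 0.15, Cdk6 rose by 0.63 ± 0.17 and Cdkn1a fell by 0.83 ± 0.25 (edgeR adjusted p = 0.00923, 0.0156 and 0.0302). The plates of day 4 held 32, 120 and 45 cells. Without plates of under 50 cells, which left 1 plate on day 4, Cdk4 gave 0.46 and Cdkn1a -0.48 and neither passed (adjusted p = 0.255 and 0.509), and without day 4 replicate 3 all 3 were lost (0.103 for Cdk4, 0.0747 for Cdk6 and 0.157 for Cdkn1a). The Cdk6 and Cdkn1a calls were also lost without other single plates of these days (Cdk6 without day 3 replicate 2 or 3 or day 4 replicate 2, Cdkn1a without day 3 replicate 1 or 3 or day 4 replicate 1; 0.0636 to 0.113). The other tested members, Ccnd1, Ccnd2, Ccnd3, Ccne1, Cdkn1b and Cdkn2c, gave -0.90 to 0.95 and did not pass.

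The share of dividing cells was read from 88 genes of S phase and of the G2 and M phases, none of them a member; all 88 were in the RANKL table and 83 in the RANKL+CSRM617 table. Cells with 0.5% or more of their UMIs from these genes made up 49.1% ± 11.1 (SD, n = 3) of a plate at day 0 of RANKL, 32.8% ± 4.48 at day 3, 54.4% ± 1.71 at day 6 and 54.1% ± 3.85 at day 9. The split is a range and not a cell type, since 24.7% of RANKL+CSRM617 cells and 42.6% of RANKL cells lay within a factor of 2 of the limit. The levels on either side of it are a description. In the RANKL arm, Cdkn2c averaged 32.6 ± 12.6 CPM in cells with many proliferation UMIs and 7.57 ± 6.11 CPM in cells with few, and was higher in cells with many on 30 of 30 plates. Cdk4 averaged 310.3 ± 56.3 CPM in cells with many and 179 ± 75 CPM in cells with few, and was higher in cells with many on 30 of 30 plates. Both E cyclins leaned the same way, with Ccne1 at 14.2 ± 10.8 CPM in cells with many and 1.97 ± 1.95 CPM in cells with few. Cdkn1a showed the opposite, 107 ± 36.9 CPM in cells with many and 465 ± 238 CPM in cells with few, and was lower in cells with many on 30 of 30 plates. Ccnd2 averaged 384 ± 151 CPM in cells with many and 561 ± 240.2 CPM in cells with few, and was lower in cells with many on 27 of 30 plates, but the mean difference of -177 CPM was below its spread over plates (SD 228). With the limit at 0.25% Ccnd2 was lower in cells with many on 12 of 27 plates and higher on 15. Cdkn1b differed from Cdkn1a here as well, at 189 ± 45.1 CPM in cells with many and 131 ± 57.1 CPM in cells with few. Ccnd1, Ccnd3 and Cdk6 also differed by less than the spread between plates. The 11 RANKL+CSRM617 plates with 10 or more cells on each side gave 171 ± 81.3 and 671 ± 467 CPM for Cdkn1a and 48.5 ± 17.8 and 6.51 ± 7.48 CPM for Cdkn2c, in cells with many and few. Cdk4 was higher in cells with many on 11 of 11 of these plates.

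Changes over the RANKL course were then tested within cells of few proliferation UMIs. These cells are not a single cell type, and the makeup of whole plates moved over these days, as given below. A change in makeup and a change within a type cannot be told apart in this fit. Of the 7 members tested there, 6 passed on day 6 (40.9% of 7601 genes) and 6 on day 9 (37.2%). Cdk6 stood at 596, 802 and 726 CPM in these cells on day 6, against 90.5, 139 and 109.7 CPM on day 0, a log2 fold change of 2.76 ± 0.23 (edgeR adjusted p = 2.37e-12). Ccnd1 stood at 69.2, 215 and 151 CPM on day 6, against 22.2, 17.4 and 41.9 CPM on day 0, a log2 fold change of 2.18 ± 0.42 (adjusted p = 6.58e-05). The second of these day 0 plates held 10 such cells, with 1 Ccnd1 UMI, and without it the change was 2.12 (adjusted p = 0.000182). Cdk4 rose by 1.36 ± 0.22, Ccnd2 by 1.01 ± 0.30 and Cdkn1b by 1.01 ± 0.23 (adjusted p = 5.18e-06, 0.00573 and 0.000358). The second day 0 plate was low for Ccnd2 (3 UMIs, 52.1 CPM, against 306 and 376 CPM on the others). It was low for Cdkn1b as well (2 UMIs, 34.7 CPM, against 73.4 and 105 CPM). Both rises passed in every setting run, at 0.74 or more for Ccnd2 and 0.79 or more for Cdkn1b. Cdkn1a fell here too, to 219, 237 and 116 CPM on day 6, against 666, 642 and 950.0 CPM on day 0, a log2 fold change of -2.02 ± 0.28 (adjusted p = 1.63e-07). For each of these 6 genes the plates of day 6 and day 0 did not overlap, as held for 46.3% of all tested genes, called or not. On day 9 the same 6 genes passed: Cdk6, Ccnd1, Ccnd2, Cdkn1b and Cdk4 rose by 2.99, 2.49, 1.58, 1.37 and 0.99, and Cdkn1a fell by 1.35 (adjusted p = 0.000757 or less). Ccnd3 gave 0.44 and did not pass (0.572). On day 1, 1 of 7 passed (15.7% of all genes): Cdk6 rose by 1.24 ± 0.23 (adjusted p = 0.000135). On day 3, 3 of 7 passed (20.7%): Cdk6 rose by 1.54 ± 0.23, Ccnd1 by 1.68 ± 0.42 and Ccnd2 by 0.79 ± 0.29 (adjusted p = 1.49e-06, 0.00241 and 0.0494). On that day the Ccnd2 call was lost without day 0 replicate 1 or 2 or day 3 replicate 1 or 3 (0.0741 to 0.285), and the Ccnd1 call without day 0 replicate 1 (0.0611). The fall of Ccnd2 on day 1 in all cells was not seen in cells of few proliferation UMIs, where its log2 change was 0.22 ± 0.30 (adjusted p = 0.697). On day 1 cells with many proliferation UMIs were 68% ± 3.28 of a plate; their part in that fall was not tested.

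**Figure D2:**
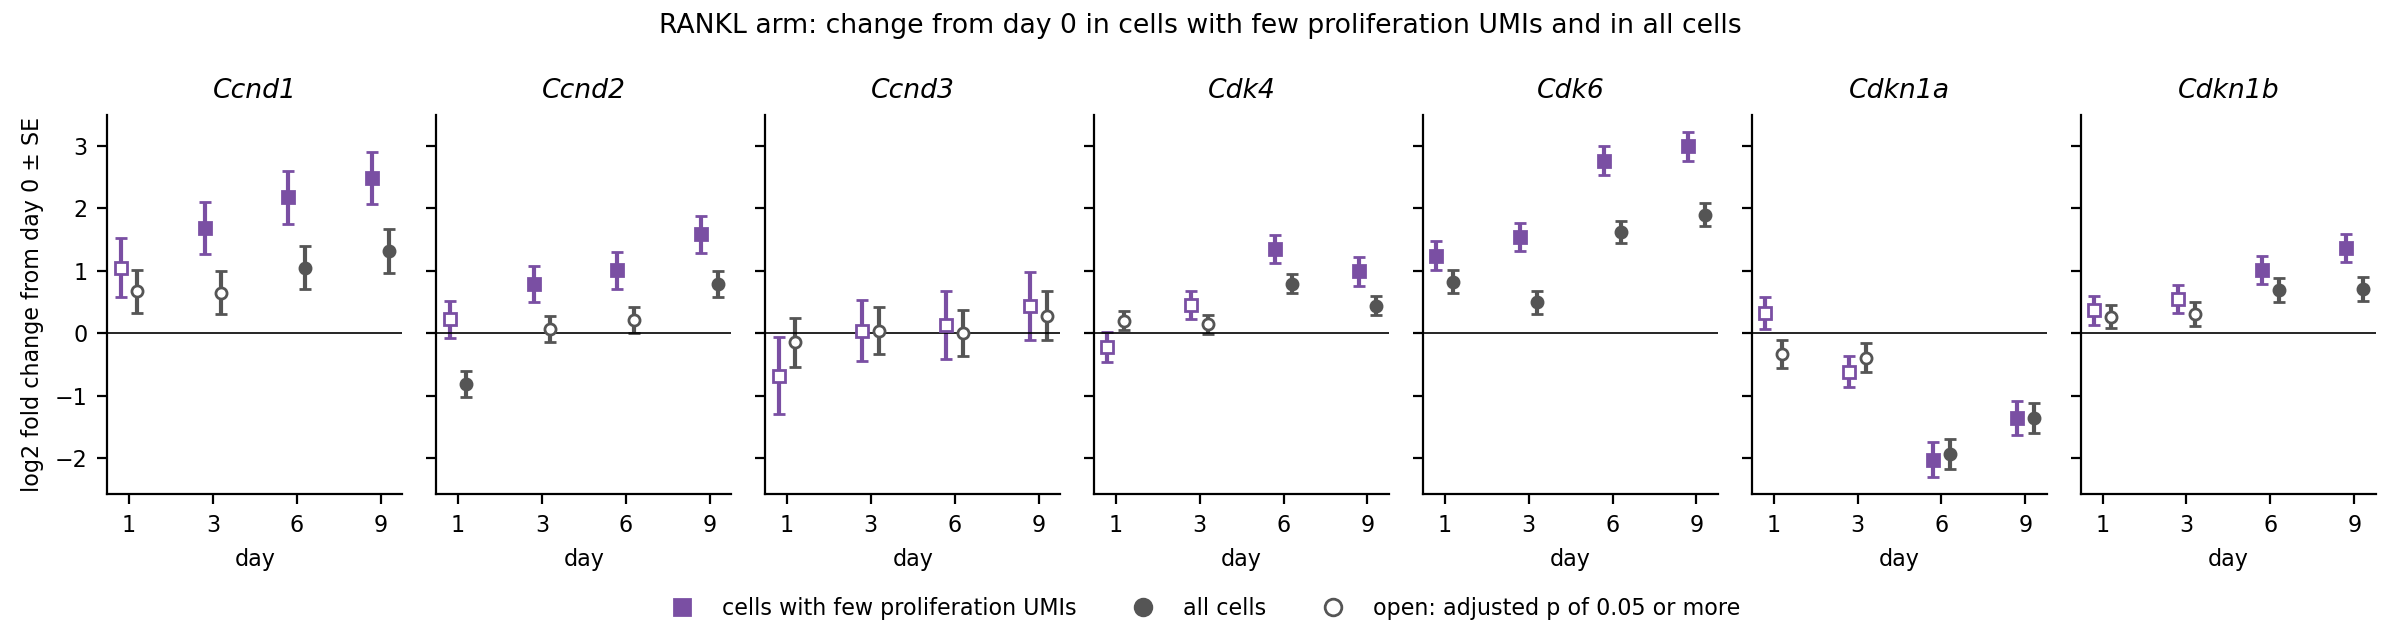
Log2 fold change from day 0 with its SE (y axis) on days 1, 3, 6 and 9 of RANKL (x axis) for the members tested in both fits, in cells with few proliferation UMIs and in all cells; open symbols did not pass the adjusted p of 0.05. Cdk6 reaches 2.99 in cells with few proliferation UMIs and 1.90 in all cells on day 9, and Cdkn1a is at -2.02 and -1.93 on day 6.

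Levels by cell class are a description, since the classes came from clusters of the same cells, made separately in each arm without the members, and named from at least 3 of a class's markers; cells of clusters with fewer stayed unnamed. In the RANKL arm, Cdkn1a averaged 922 ± 318 CPM in enterocyte-like cells (SD over 18 plates), 543 ± 169 CPM in M cell-like cells (9 plates) and 371 ± 139 CPM in goblet Paneth-like cells (18 plates). It was lower in cycling-like cells, at 97.7 ± 37.7 CPM (25 plates), and lowest in stem-like cells, at 51 ± 22.6 CPM (18 plates). Neighbours in this order overlapped in the ranges of their plates. Enteroendocrine-like cells had 509.7 ± 476 CPM over 8 plates, a spread as wide as the mean. Cdk6 ran the other way, with 812 ± 176 CPM in stem-like cells, 448 ± 107 CPM in cycling-like cells and 118 ± 61 CPM in enterocyte-like cells. Cdk4 averaged 359.6 ± 68 CPM in stem-like cells and 54.6 ± 46.5 CPM in enterocyte-like cells. Ccnd2 was highest in goblet Paneth-like cells, at 886 ± 520.0 CPM, within the spread of the 583 ± 189 CPM of M cell-like cells. Cdkn1b was highest in tuft-like cells, at 361 ± 179 CPM (4 plates), within the spread of the 337 ± 137 CPM of enteroendocrine-like cells, and Cdkn2c in cycling-like cells, at 46.4 ± 24.6 CPM. The classes were drawn from different days, and class and day are joined in these means. All M cell-like plates were of days 1 to 3 and all stem-like plates of days 4 to 9. Of cycling-like cells, 358 of 369 on day 1 were in a cluster led by Ube2c. On day 6, 104 of 127 were in a cluster led by Cenpf. In M cell-like cells, the class RANKL is known to induce, Cdkn1a stood at 680.3 ± 48.7 CPM on day 1, 611 ± 81.8 CPM on day 2 and 337 ± 80.7 CPM on day 3 (3 plates each).

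**Figure D3:**
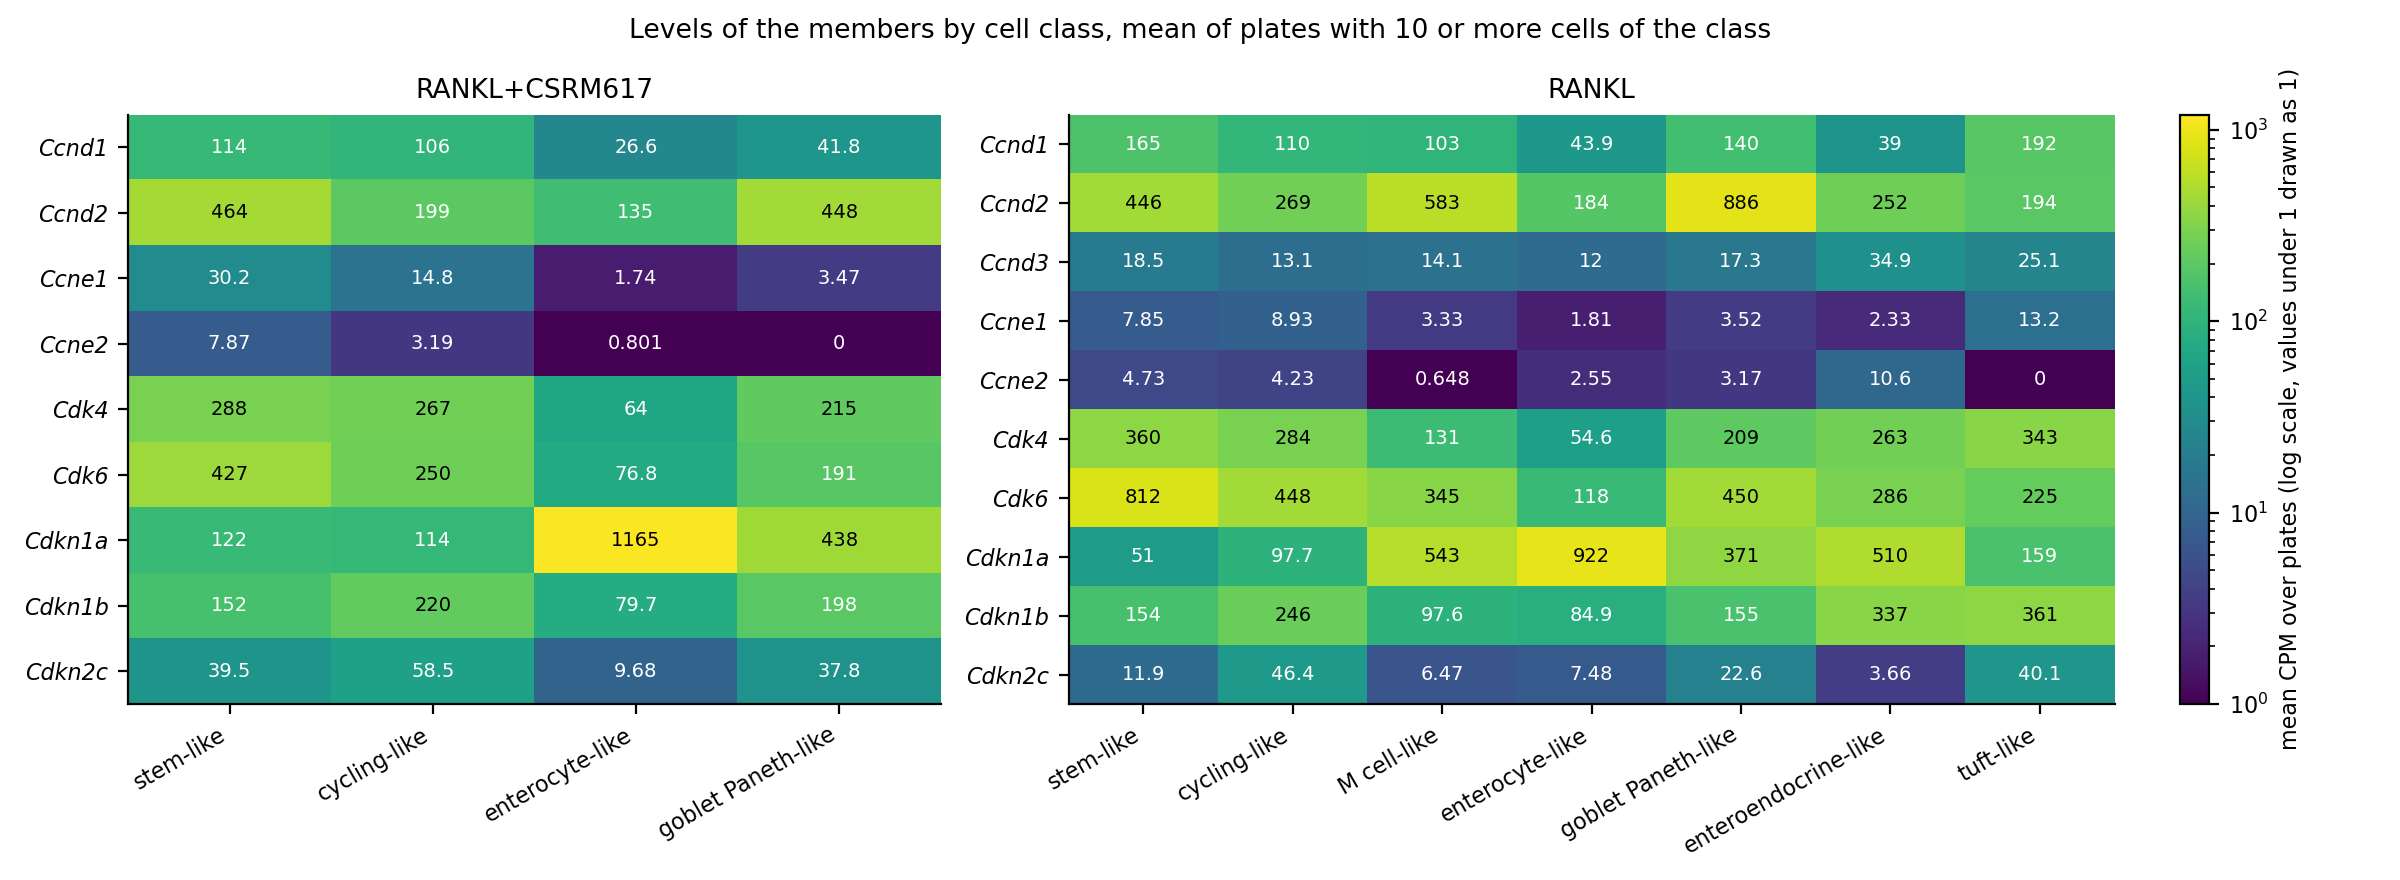
Mean CPM (colour on a log scale, and printed value) of each member (rows) in each named cell class (columns) over plates with 10 or more cells of the class, for both arms. Cdkn1a is highest in enterocyte-like cells, at 1165 CPM with CSRM617 and 922 CPM with RANKL alone, where Cdk6 and Cdk4 are lowest. The classes were drawn from different days. CPM here is over each arm's own table and is not scaled by TMM.

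The makeup of the plates moved with these levels. Of the cells of a RANKL plate, 45.9% ± 6.96 (SD, n = 3) were enterocyte-like on day 0, 24.4% ± 1.39 on day 3, 11.6% ± 2.43 on day 4 and 1.28% ± 0.536 on day 6. Stem-like cells were 0.374% ± 0.369 on day 3 and 30.9% ± 5.14 on day 4. Their part in the fall of Cdkn1a and the rise of Cdk6 was not tested. Within enterocyte-like cells, Cdkn1a was 683 ± 219 CPM on day 5 and 739.8 ± 89.5 CPM on day 0 (3 plates each). Different clusters hold most of the class on these days: 49 of 54 such cells of day 5 were in the cluster led by Reg3b and Apoa4, and 235 of 236 of day 0 in the cluster led by Fabp1 and Ifit1. Unnamed cells were 52.8% ± 0.966 of a plate on day 6 and 48.3% ± 5.27 on day 0. Of these, 280 of 408 were in a cluster led by Edn1 and Clu on day 6 and 206 of 221 in a cluster led by Gm1123 and Fos on day 0, and their levels are therefore not compared.

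In the RANKL+CSRM617 arm, Cdkn1a rose. On day 3 it stood at 1081 and 1442 CPM, against 300.4 and 318 CPM on day 0, and both plates of day 3 were above every other plate of the arm. Its log2 fold change was 2.03 ± 0.26 (edgeR adjusted p = 4.09e-06; 2 plates a day, with the spread estimated over all 14). The level was 393 ± 6.67 CPM on day 4 and 184 ± 60.1 CPM on day 5 (SD, n = 2). On day 6 it was 603 and 599 CPM, a change from day 0 of 0.96 ± 0.27 (adjusted p = 0.0318). Leaving out any 1 of the 4 plates of days 0 and 6 ended the day 6 call (0.108 to 0.18). In cells of few proliferation UMIs the change was 1.50 on day 3 (adjusted p = 0.000629) and 0.20 on day 6 (0.798). Ccnd2 stood at 134 and 106 CPM on day 3, against 405 and 542 CPM on day 0, a log2 fold change of -1.97 ± 0.29 (edgeR adjusted p = 2.6e-05). On day 1 it fell by 1.08 ± 0.25 (adjusted p = 0.0126), a call lost without day 0 replicate 2 or either plate of day 1 (0.0547 to 0.182). Of the 7 members tested, 1 passed on day 1 (4.37% of 6499 genes), 2 on day 3 (18%), 1 on day 6 (7.51%) and 4 over all days (20.2%): Cdkn1a, Ccnd2, Cdk6 and Ccnd1. Cdk4, Cdkn1b and Cdkn2c passed none of these edgeR tests. Cdkn2c had no UMI on day 6, against 28 UMIs or 26.7 CPM on day 0, and did not pass (edgeR adjusted p = 0.0511). With 3 counts taken as the limit for day 6 it was 2.34-fold lower. That ratio counts no error for the 28 UMIs and no spread between plates. Cdkn2c passed under 4 of 9 alternatives, limma among them (adjusted p = 0.0188). Cdk4 gave -0.47 on day 3 (adjusted p = 0.295), and in cells of few proliferation UMIs alone it fell by 1.61 (0.0125). Ccne1 and Ccne2 were too sparse to be tested in this arm. Mean Ccnd1 was highest on day 5, at 202 ± 25.6 CPM, and mean Cdk6 on day 4, at 372 ± 78.2 CPM. In simulated counts for this arm, 26% of genes changed 2-fold and 83% of genes changed 4-fold were called on day 6. Only better counted genes were changed there, so these rates do not cover sparse members such as Cdkn2c.

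The arms were set against each other at matched days in a single fit of 8766 genes found in both tables, with its own scale. They are separate sets of plates in separate tables, so the inhibitor and the set cannot be told apart at a given day. On day 0, 0 of 9 members passed (9.82% of all genes; 1 of 9 at an unadjusted p under 0.05, and 0 with DESeq2). The named classes of day 0 differed between the arms. Day 0 is the reference from which each arm's changes were counted, and these are differences between the sets of plates on that day. Enterocyte-like cells were 3.09% ± 3.52 of a plate in the RANKL+CSRM617 arm (SD, n = 2) and 45.9% ± 6.96 in the RANKL arm (n = 3). Stem-like cells were 33% ± 0.7 and 0.295% ± 0.511, and cycling-like cells 17.7% ± 1.11 and 0.439% ± 0.437. Clusters were named by arm, and 99 of 135 unnamed day 0 cells of the RANKL+CSRM617 arm were in a cluster led by Fabp1. Cells with many proliferation UMIs were 52.1% ± 3.78 and 49.1% ± 11.1. Cdkn1a on day 0 stood at 316 and 335 CPM in the RANKL+CSRM617 arm and at 415, 354 and 594 CPM in the RANKL arm. On day 3 it stood at 1182 and 1591 CPM with CSRM617, against 411, 288 and 388 CPM without, with no overlap. The log2 difference was 1.94 ± 0.25 (edgeR adjusted p = 3.24e-07). Ccnd2 had 147 and 117 CPM with CSRM617, against 567, 325 and 418 CPM without, a difference of -1.73 ± 0.29 (adjusted p = 3.23e-05). Cdk6 had 188 and 144 CPM with CSRM617, against 359, 250.1 and 278 CPM without, a difference of -0.84 ± 0.24 (adjusted p = 0.0149). The Cdk6 call was lost without RANKL day 3 replicate 1 (0.0768) or RANKL+CSRM617 day 3 replicate 2 (0.209). These were the 3 of 9 members called on day 3 (13.8% of all genes). Their plates did not overlap between arms, as held for 48% of all tested genes, called or not.

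On day 6, 6 of 9 members passed (17.6% of all genes). Cdkn1a stood at 631 and 613 CPM with CSRM617, against 134, 150.0 and 83.9 CPM without, a log2 difference of 2.34 ± 0.30 (edgeR adjusted p = 2.31e-07). Cdk6 stood at 202 and 270.3 CPM with CSRM617, against 561, 709 and 635 CPM without, a difference of -1.43 ± 0.27 (adjusted p = 0.000126). Cdkn1a was thus higher, and Cdk6 lower, with CSRM617. Cdk4 was at 166 and 144 CPM with CSRM617, against 353, 298 and 252 CPM without (-0.95 ± 0.28, adjusted p = 0.0152). Cdkn1b was at 105 and 90.1 CPM with CSRM617, against 216, 196 and 176 CPM without (lower by 1.00 ± 0.34 on the log2 scale, adjusted p = 0.0375). Ccnd2 was at 193 and 324 CPM with CSRM617, against 372, 531 and 530.3 CPM without (-0.89 ± 0.30, adjusted p = 0.0372). The plates of the arms did not overlap for any of these 5 genes, as held for 55.1% of all tested genes, called or not. Cdkn2c had no UMI among 263273 with CSRM617 on day 6, which allows up to 11.4 CPM (3 counts over the group, counting error only), against 66 UMIs or 21.4 CPM without. At that limit it was 1.88-fold lower, with no error counted for the 66 UMIs and no spread between plates. Its edgeR adjusted p was 0.046, but 0.0794 with DESeq2. Several of these calls were lost without 1 plate of day 6. They were Cdk4 without either RANKL+CSRM617 plate (0.0605 to 0.104), Cdkn1b without either of these or RANKL replicate 1 or 2 (0.0508 to 0.187), Ccnd2 without RANKL+CSRM617 replicate 1 or RANKL replicate 2 or 3 (0.0828 to 0.331), and Cdkn2c without either RANKL+CSRM617 plate or RANKL replicate 1 or 3 (0.0536 to 0.225). The RANKL+CSRM617 plates of day 6 held 108 cells together.

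The change from day 0 with CSRM617 was then tested against the change without. The day 0 plates of the arms differed in makeup, as given above. The inhibitor, the set of plates and the starting cells therefore cannot be told apart here either. On day 1 this called 0 of 9 members (0.365% of all genes; 0 of 9 at an unadjusted p under 0.05, and 0 with DESeq2). The day 1 differences of Cdk6 and Cdkn1a were -0.01 (95% interval -0.62 to 0.60) and -0.08 (-0.82 to 0.66). On day 3 it called 2 of 9 (5.46% of all genes): Cdkn1a, at 2.46 ± 0.37 (edgeR adjusted p = 4.21e-05), and Ccnd2, at -1.98 ± 0.38 (adjusted p = 0.000834). The median over the 9 members was -0.56 on day 3, and -0.01 over all genes. On day 6 it called 4 of 9 (11.3% of all genes). Cdkn1a differed by 2.87 ± 0.40 (adjusted p = 3.08e-06), Cdkn1b by -1.55 ± 0.42 (0.0103), Cdk6 by -1.30 ± 0.35 (0.0117) and Cdk4 by -1.19 ± 0.36 (0.0235). Without 1 plate the day 6 call was lost for Cdk4 (RANKL day 6 replicate 1, RANKL+CSRM617 day 0 replicate 1, or either RANKL+CSRM617 plate of day 6, 0.0539 to 0.12), for Cdk6 (RANKL+CSRM617 day 6 replicate 1, 0.0804) and for Cdkn1b (RANKL+CSRM617 day 6 replicate 2, 0.0664). Ccnd2 was just short of the threshold on day 6, at -1.14 ± 0.39 (adjusted p = 0.0501). It passed under 9 of 11 alternatives, DESeq2 and limma among them (adjusted p = 0.0382 and 0.018), and without any of 4 single plates out of 10. Ccnd1 gave 0.10 on day 6, with an interval of -1.16 to 1.36. Cdkn2c, with no UMI on day 6 of RANKL+CSRM617, did not pass (adjusted p = 0.0687). Ccnd1, Ccne1 and Ccne2 passed none of the edgeR tests between arms. For Ccne1, with 1 and 3 UMIs on the day 6 plates with CSRM617 and 1, 5 and 2 UMIs without, the direct difference on day 6 was 2.82 ± 1.17 (edgeR adjusted p = 0.093), and it passed with DESeq2 (2.85, adjusted p = 0.0255) and without RANKL day 6 replicate 2 (3.66, edgeR adjusted p = 0.0464).

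**Figure D4:**
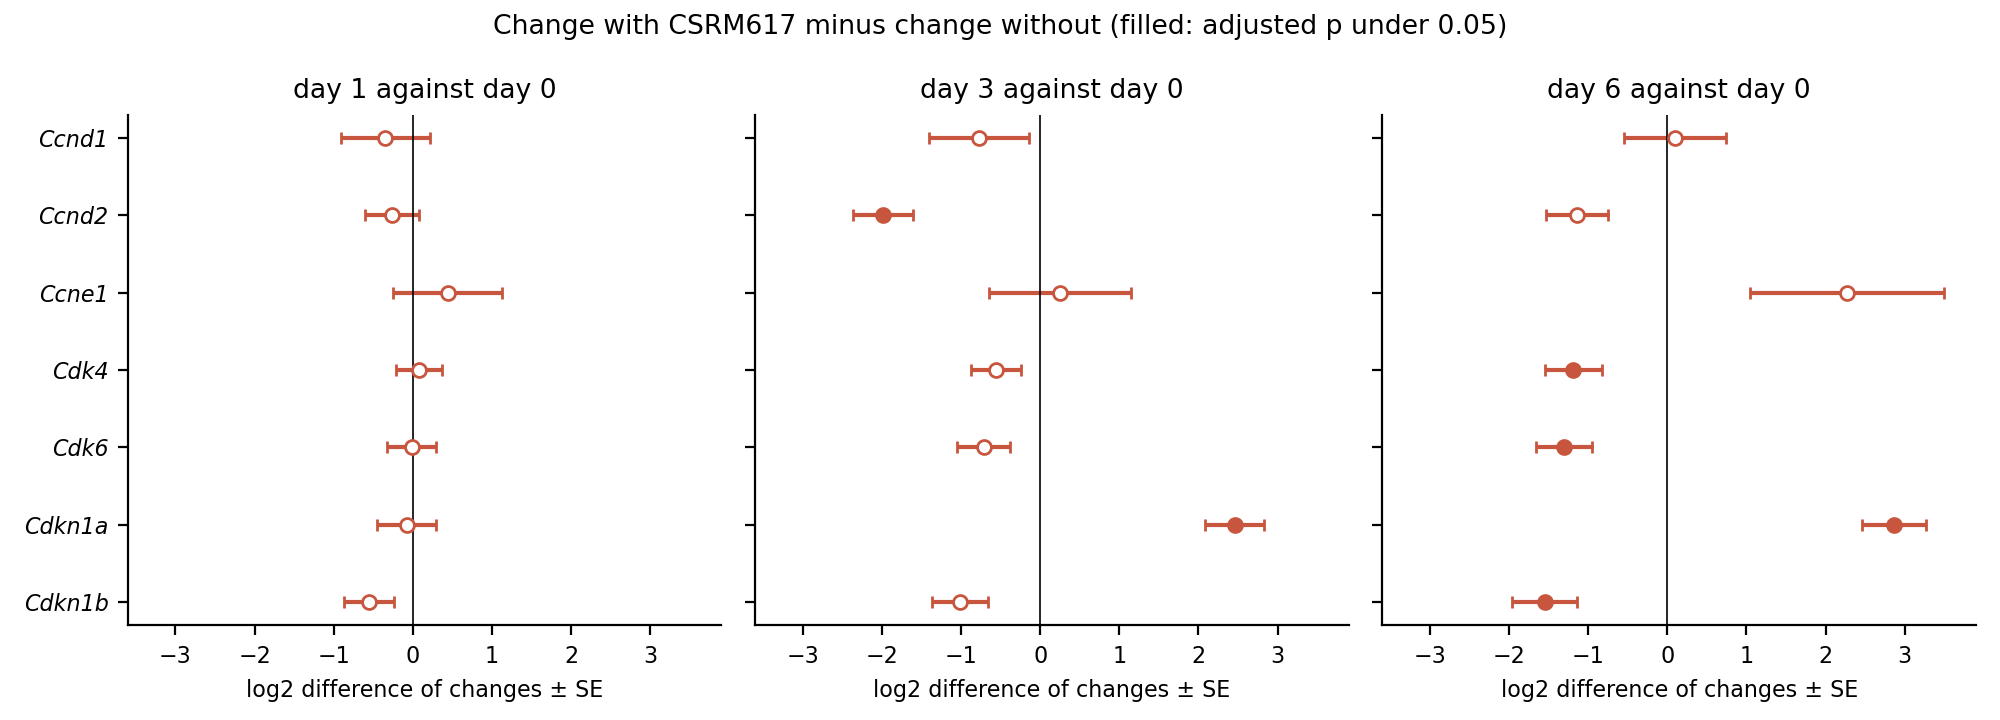
Log2 change from day 0 with CSRM617 minus the change without, with its SE (x axis), for the members shown as rows, on days 1, 3 and 6 (panels); filled points passed the adjusted p of 0.05. Cdkn1a stands right of 0 on days 3 and 6, at 2.46 and 2.87, with Ccnd2 at -1.98 on day 3 and Cdk4, Cdk6 and Cdkn1b from -1.19 to -1.55 on day 6.

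Dividing cells differed between the arms on the same days. Cells with many proliferation UMIs were 21.5% ± 0.269 of a plate with CSRM617 (SD, n = 2) and 32.8% ± 4.48 without (n = 3) on day 3, and 12% ± 3.61 with CSRM617 and 54.4% ± 1.71 without on day 6. With the 83 genes found in both tables, a choice made after the data were seen, the shares without CSRM617 were 32.4% ± 4.49 on day 3 and 53.6% ± 1.37 on day 6. In cells of few proliferation UMIs alone, a setting chosen after the data were seen, the difference of the Cdkn1a changes was 2.13 on day 3 (edgeR adjusted p = 0.000802) and 2.11 on day 6 (adjusted p = 0.00066). In the same cells Cdk4 differed on day 6 by -1.66, Cdk6 by -1.86 and Cdkn1b by -1.81 (adjusted p = 0.0207, 0.00596 and 0.0189). Ccnd2 differed by -2.89 on day 3 (adjusted p = 0.000454) and by -1.91 on day 6 (0.0117). Set against each other directly on day 6 in these cells, the arms differed in 3 members, Cdkn1a by 1.77 (adjusted p = 3.27e-05), Cdk6 by -1.68 (adjusted p = 5.23e-05) and Ccnd2 by -1.37 (adjusted p = 0.00927). Cdk4 and Cdkn1b had differences of -0.83 and -1.03 there, about as large as in all cells, and did not pass (adjusted p = 0.0976 and 0.0675). Enterocyte-like cells were 48% ± 4.87 of a plate with CSRM617 and 24.4% ± 1.39 without on day 3. Within them, Cdkn1a averaged 1855 ± 539.6 CPM with CSRM617 (2 plates, 94 cells) and 832 ± 185 CPM without (3 plates, 198 cells). These CPM are not scaled by TMM and are over each arm's own table, of 9257 genes with CSRM617 and 21099 without. In each arm 2 clusters were behind the class. The leading genes of these clusters were Reg3b and Cyp1a1 in one and Cyp2c29 and Cyp3a11 in the other with CSRM617, and Reg3b and Apoa4 in one and Fabp1 and Ifit1 in the other without. On day 6, 74% ± 8.54 of a RANKL+CSRM617 plate and 52.8% ± 0.966 of a RANKL plate were unnamed, and as different clusters make up these cells in the arms, their levels are not compared. The part of cell makeup in the differences between arms was not tested.

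**Figure D5:**
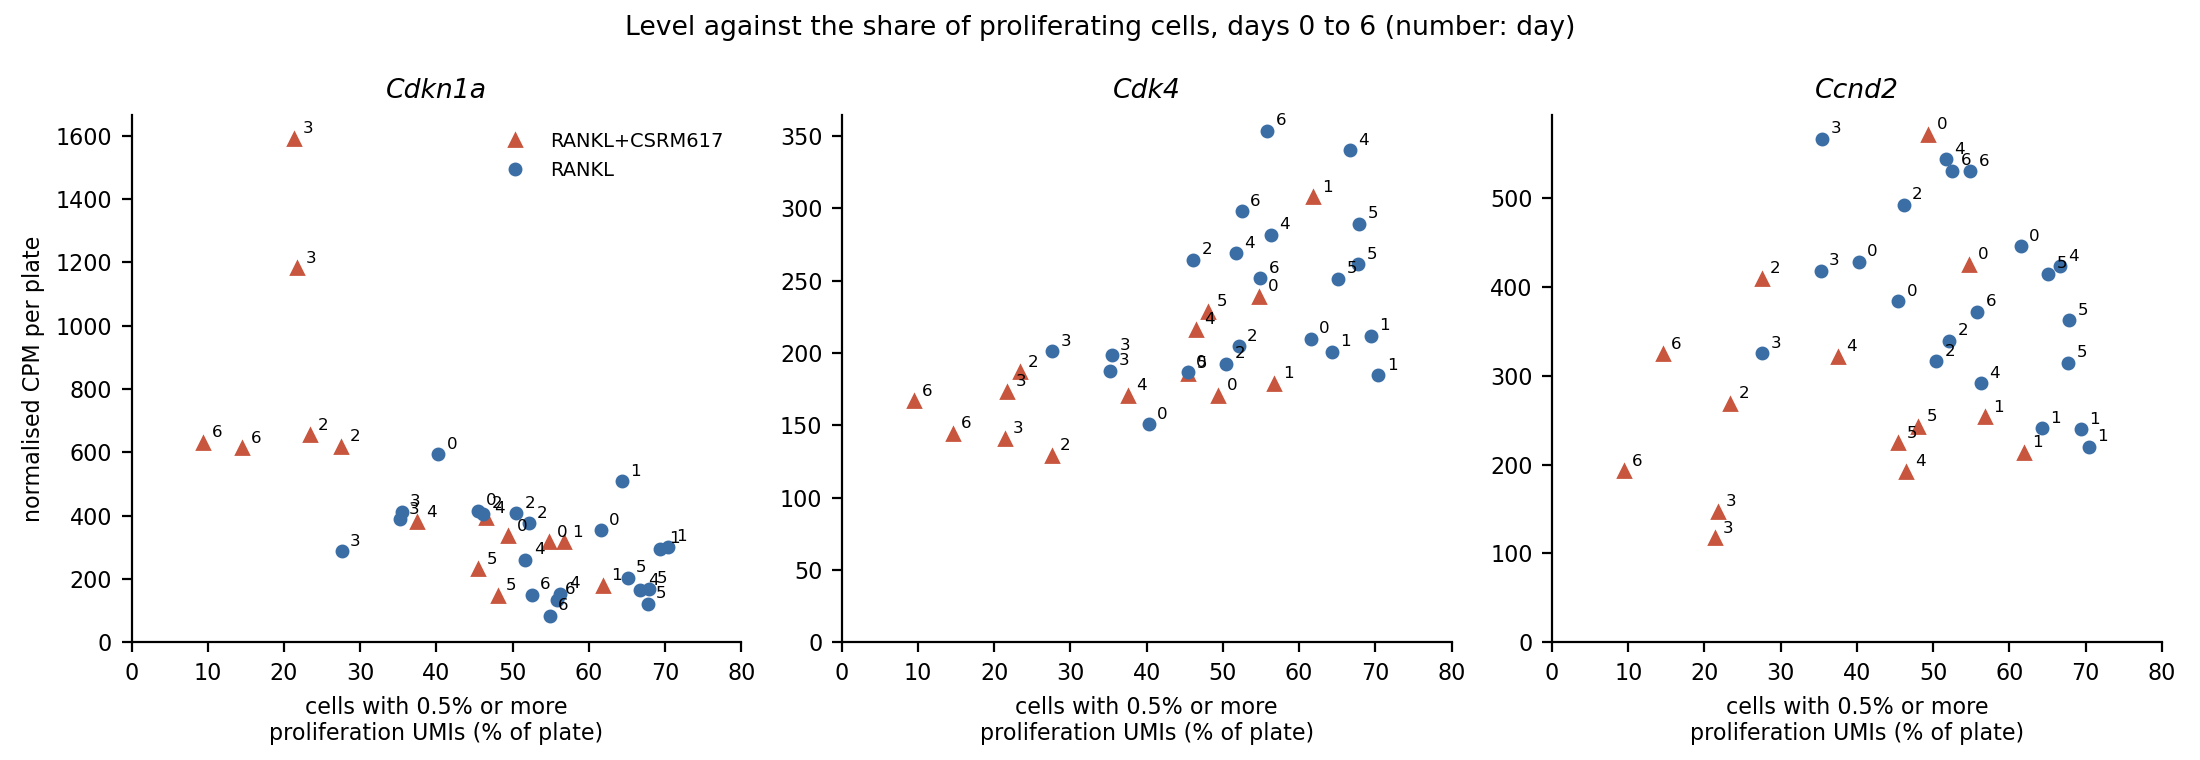
Normalised CPM of Cdkn1a, Cdk4 and Ccnd2 on each plate of days 0 to 6 (y axis) against the share of the plate's cells with 0.5% or more of UMIs from S, G2 and M phase genes (x axis, percent), with RANKL+CSRM617 plates in red and RANKL plates in blue. The day 3 plates with CSRM617 stand highest for Cdkn1a, at 1182 and 1591 CPM, and lowest for Ccnd2, at 147 and 117 CPM.

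Other genes of the G1 to S network were read from a list of 32, of which 29 were tested in the RANKL arm. On day 6, 2 rose and 4 fell, so that 6 of 29 passed, below the 38.3% of all genes, with a median log2 change of 0.13, against 0.04 over all genes. E2f2, a transcription factor of the E2F family, fell by 3.86 ± 0.34 (edgeR adjusted p = 3.35e-11), to 4.7 CPM on day 6 against 62.1 CPM on day 0. Ccng2, an atypical cyclin linked to cell cycle arrest, rose by 1.98 ± 0.27 (adjusted p = 3.04e-07). Cdkn2b, which encodes the INK4 inhibitor p15, rose by 1.00 ± 0.17 on day 3 and fell by 1.05 ± 0.18 on day 6 of RANKL (adjusted p = 1.74e-05 and 1.67e-05). With CSRM617 it rose by 2.73 ± 0.28 on day 3 and by 2.60 ± 0.31 on day 6, to 475 and 434 CPM, against 71.5 CPM on day 0 (adjusted p = 1.6e-07 and 3.03e-06). The difference of its changes was 3.63 ± 0.34 on day 6 (adjusted p = 1.03e-09). Already on day 0 the arms differed at this gene, by -1.02 ± 0.25 (adjusted p = 0.00457). Myc, a driver of G1 progression, fell by 1.36 ± 0.33 on day 3 with CSRM617 (adjusted p = 0.00463). Genes higher and lower numbered 3 and 1 on day 1 of RANKL, where 23.8% of all genes passed. They numbered 3 and 5 on day 3 (20.4%) and 3 and 4 on day 9 (36.4%). Of the 22 tested with CSRM617, 0 and 0 passed on day 1 (4.37%) and 1 and 4 on day 3 (18%). On day 6 of that arm they numbered 1 and 0 (7.51%). On day 3 with CSRM617 their median was -0.71, against -0.05 over all genes. Between the arms, of 28 tested, genes higher and lower numbered 2 and 3 on day 0 (9.82% of all genes passed). They numbered 3 and 4 on day 3 (13.8%) and 4 and 5 on day 6 (17.6%). In the difference of changes on day 6, 2 of 28 were higher, Cdkn2b and E2f2, and 2 were lower, Cks1b and Myc. In that comparison 11.3% of all genes passed.

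Other p53 targets were read from a list of 25, of which 22 were tested in the RANKL arm; Ccng1 is in both lists. On day 6, where Cdkn1a fell, 6 rose and 2 fell, so that 8 of 22 passed, near the 38.3% of all genes, with a median of 0.55, against 0.04 over all genes. Trp53inp1, a p53-induced regulator of cell death and autophagy, rose by 1.23 ± 0.26 (edgeR adjusted p = 0.000277), while Fas, a death receptor, fell by 1.53 ± 0.39 (adjusted p = 0.00199). On day 3 of RANKL, where Cdkn1a did not pass, 8 of 22 rose and 0 fell, against 20.4% of all genes passing. Their median was 0.70, against -0.01 over all genes. With CSRM617, 6 of 14 rose and 1 fell on day 3, where 18% of all genes passed, with a median of 0.63, against -0.05 over all genes. Fas rose by 2.79 ± 0.51 and Sesn1, a stress-induced sestrin, by 1.65 ± 0.42 (adjusted p = 0.000409 and 0.00773), and Btg2, an antiproliferative factor, fell by 2.15 ± 0.42 (0.000861). Genes higher and lower numbered 4 and 0 on day 1 of RANKL (23.8% of all genes passed) and 8 and 3 on day 9 (36.4%). Of the 14 tested with CSRM617, 1 and 1 passed on day 1 (4.37%) and 3 and 0 on day 6 (7.51%). Between the arms, of 21 tested, genes higher and lower numbered 5 and 1 on day 0 (9.82% of all genes passed). They numbered 3 and 1 on day 3 (13.8%) and 4 and 1 on day 6 (17.6%). In the difference of changes on day 3, 2 of 21 were higher, Fas and Sesn1, and 2 were lower, Btg2 and Ddit4. In that comparison 5.46% of all genes passed.

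Across the 30 RANKL plates, likeness to each tested member was measured by Pearson's r of log2 CPM over 5438 genes outside the members. These values are descriptions, and plates share days and cell makeup. Nearest to Cdkn1a were Plpp2 (0.904) and Alpi (0.9), of which Alpi encodes the alkaline phosphatase of the enterocyte brush border. Uri1 (0.898) was near to Cdk6, and Trim28 (0.847) and Nme4 (0.832) were nearest to Cdk4. For the D cyclins they were Purb (0.843) and Snw1 (0.836) with Ccnd1, Lpp (0.827) and Deptor (0.816) with Ccnd2, and Gm49164 (0.773) and Dis3l2 (0.72) with Ccnd3. For Ccne1 they were Exoc5 (0.832) and Ap3m1 (0.798), for Cdkn1b Ldb1 (0.814) and Mtss1 (0.813), and for Cdkn2c Tmed6 (0.657) and Pole4 (0.615). Among the members, r was -0.768 between Cdk6 and Cdkn1a, -0.748 between Cdk4 and Cdkn1a, and 0.662 between Cdk4 and Cdk6.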

How the data were processed

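Transcripts of cells sorted into 384-well plates were counted at their 3' ends with UMIs, per the labels' protocols. The authors deposited these UMI counts without normalisation, as genes by wells; kallisto, bustools (versions not given in the sources used here), Seurat 3.1.5 and GRCm38 are named in the submitters' processing notes. The poorest deposited wells had 657 UMIs in the RANKL arm and 344 in the RANKL+CSRM617 arm. Wells with 1000 or more UMIs were kept, which left 6558 of 6636 and 1673 of 1903. Wells were sorted singly, so no doublet caller was run, and no well repeated another. Median UMIs per cell ran over plates from 1800 to 3685 with CSRM617 and from 2968 to 6960 without.

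Counts were summed per plate and tested with edgeR 4.0.16 (R 4.3.3; quasi-likelihood test, TMM, filterByExpr, Benjamini-Hochberg at 0.05 over all tested genes). One fit took the 30 RANKL plates, one the 14 RANKL+CSRM617 plates, one the 35 plates of days 0 to 6, and one the RANKL cells with under 0.5% of UMIs from proliferation genes. Intervals are 95% intervals from the fit. Means of CPM are given with the SD over plates. CPM by cell class, CPM in cells with many set beside cells with few proliferation UMIs, and CPM beside a limit for 0 were not scaled by TMM. Clusters came from scanpy 1.11.5 and leidenalg 0.10.2 (2000 variable genes without the members, 30 components, 15 neighbours, resolution 1.0), 16 in the RANKL arm and 12 in the RANKL+CSRM617 arm. Promoter windows are from RefSeq on GRCm38.p6.

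The members were the genes to name in every comparison, and those given no value in one were not tested in it or are covered by its count. From the 2 pathway lists, up to 4 genes per comparison could be named, those with the largest called change where mean log2 CPM was at least 3, and for likeness the 2 genes nearest to each member where it was at least 5. For Cdk6, 1 of these is not reported here. The members and lists were chosen with earlier results of these data known. Alternatives were other cell filters, scalings and tests (DESeq2 1.42.0, limma 3.58.1), a replicate block and leaving out each plate. Plates differed by more than sampling noise within every group, the chi-square per gene of 37 pairs being 2.29 to 22.4. In simulated RANKL counts, 89% of genes changed 2-fold were called on day 6, with 0.0738% of unchanged genes. In the difference of changes on day 6, 8% of genes changed 2-fold and 74% of genes changed 4-fold were called. The simulations changed 100 genes at each fold, all with a mean log2 CPM of at least 5, and do not cover sparser genes.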

Additional observations from a re-analysis of the deposited data

Results flagged for a closer look

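The change from day 0 differed between the arms, by the test of that difference in edgeR, for 6 combinations of gene and day. The inhibitor, the set of plates and the unlike cells of day 0 cannot be told apart in this test. On day 3 the change of Cdkn1a with CSRM617 minus that without was 2.46 on the log2 scale, with both RANKL+CSRM617 plates above all 3 RANKL plates, and that of Ccnd2 was -1.98, with both below. On day 6 the difference was 2.87 for Cdkn1a, -1.19 for Cdk4, -1.30 for Cdk6 and -1.55 for Cdkn1b. Cdkn1a had both RANKL+CSRM617 plates of day 6 above all 3 RANKL plates, and the other 3 genes had both below. The 2 differences for Cdkn1a and the Ccnd2 difference of day 3 passed under every alternative that was run. The other 3 lost the call without 1 plate or another, as given above. The day 6 plates with CSRM617 held 108 cells, of which 12% ± 3.61 per plate (SD, n = 2) had many proliferation UMIs, against 54.4% ± 1.71 without (n = 3); the part of this in the differences was not tested. In cells with few proliferation UMIs alone the day 6 differences were 2.11 for Cdkn1a, -1.66 for Cdk4, -1.86 for Cdk6 and -1.81 for Cdkn1b.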

How the results depend on the processing

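For 85 member results that were called in the fits as reported or in an alternative, the alternatives gave 929 values, of which 846 kept direction and call, 37 lost the call, 45 gained one and 1 reversed; leaving out 1 plate gave 745, of which 670 kept both, 52 lost the call, 22 gained one and 1 reversed. The reversals were Ccnd2 on RANKL day 1 in cells with few proliferation UMIs (0.22) and Ccnd2 on RANKL day 3 without day 3 replicate 1 (-0.10, in a range of -0.10 to 0.31 over plates left out). The cause was not tested.

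Counts of called members moved as follows. RANKL day 1 called 2 members, and 1 in cells with few proliferation UMIs. RANKL day 3 called 1. It called 0 with 2000 UMIs per cell, with each cell weighted equally in limma, or with the compared groups alone, 2 without a filter on low counts or without plates of under 50 cells, and 3 in cells with few proliferation UMIs. RANKL day 4 against day 3 called 3, and 0 in cells with few proliferation UMIs. RANKL+CSRM617 over all days called 4, and 2 in limma. RANKL+CSRM617 day 1 called 1, but 2 with a filter of 500 or 2000 UMIs and 0 in limma or in cells with few proliferation UMIs. RANKL+CSRM617 day 6 called 1. It called 2 with DESeq2 size factors or without the most abundant gene, 3 without a filter on low counts, with 500 UMIs or with the compared groups alone, and 0 with 2000 UMIs or in cells with few proliferation UMIs. The arms on day 6 differed in 6 members, and in 3 in cells with few proliferation UMIs, where the folds of Cdk4 and Cdkn1b were -0.83 and -1.03. The difference of changes on day 3 called 2, and 4 in such cells. In the fit of RANKL cells with few proliferation UMIs, day 1 called 1, but 2 without a filter on low counts, in limma or with the compared groups alone, and 0 where proliferation UMIs were under 0.25%.

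Without 1 plate, counts ranged from 0 to 2 (RANKL day 3), 0 to 3 (RANKL day 4 against day 3), 0 to 1 (RANKL+CSRM617 day 1), 2 to 5 (arms on day 6), 2 to 5 (difference of changes on day 6) and 1 to 4 (few proliferation UMIs, day 3), and were 0 for RANKL+CSRM617 day 6 throughout. With the replicate block, the arms on day 6 differed in 5 members, Cdkn2c no longer among them (adjusted p = 0.0526), and the difference of changes on day 6 called 4; it changed no other member count by over 1.5 times. Plates of 1 number did not vary together (correlations of -0.186 to 0.171 in the RANKL arm and -0.252 to 0.259 in the RANKL+CSRM617 arm), and 9 of 30 and 4 of 14 plates correlated best with their own number. Few UMIs limit what can be said of Ccne1, Ccne2, Ccnd3 and Cdkn2c (145 to 740 each in all RANKL cells).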
